A study of Homo sapiens with 6 samples.

Results

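Splicing factors and heterogeneous nuclear ribonucleoproteins (hnRNPs) were examined in HaCaT cells, spontaneously immortalized human keratinocytes. Bead arrays (Illumina HT-12) were run on total RNA of 3 samples kept for 24 h in 1 µg/ml histamine and of 3 control samples without an added agent. The medium of both groups was DMEM holding 10% serum and calcium at 1.5 mM. The labels speak of a triplicate without saying whether the cultures were separate, so p-values reflect only how far these samples scatter, and part of that scatter may be technical. Sample names in the labels run in 1 numbered series for histamine and in another for control; what the series mark is not stated, and it cannot be told apart from treatment in any of these differences. Members were all probes annotated to a gene named SRSF plus a number, or starting with HNRNP, SF3A, SF3B, SNRP or U2AF, and 6 probes of pseudogenes were left out. This gave 108 of the 47322 probes on the array, for 60 of the 20046 genes it names.

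Splicing removes introns from nascent transcripts. The U1 snRNP marks the 5′ splice site, U2AF binds the pyrimidine tract and the AG at the 3′ splice site, and the U2 snRNP with its SF3A and SF3B complexes settles on the branch point. Small nuclear RNAs are held in a ring of Sm proteins, which the SNRP genes encode together with specific U1 and U2 proteins. SR proteins, named for their arginine and serine-rich domain, mostly bind exonic enhancers and promote the use of nearby sites, while hnRNPs coat nascent RNA and often repress or redirect it. Many SR and hnRNP genes limit their own expression by alternative splicing that sends part of their transcripts to nonsense-mediated decay, so probes of a gene can report different transcript forms.

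Signals were taken as log2 intensities after background correction and quantile normalization, and a probe was kept when its detection p-value was under 0.05 on at least 3 of the 6 arrays. The 9 keratinocyte markers with a probe were detected on all arrays of both groups, while of 5 endothelial markers 0 were detected on all arrays of a group and 3 were detected nowhere. Of 6 immune markers 2, CD68 and CD14, were detected on all arrays of both groups. So was 1 of 7 fibroblast markers, VIM. Of 5 melanocyte markers 1, MITF, was detected on all histamine arrays and on 2 control arrays. Skeletal muscle transcripts were higher in the histamine samples, most of all in replicate 1: of 12 muscle markers 6 were detected on all histamine arrays and 1 on all control arrays. The summed signal of the 12 was 35318, 2518 and 2435 on histamine replicates 1, 2 and 3, against 1363, 1586 and 1452 on control replicates 1, 2 and 3. Each array detected 36.7% to 40.9% of all probes and 94 to 99 of the 108 member probes, and member probes had a median standard error of 0.13 in their log2 difference, with n = 3 per group.

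Of the 108 member probes 96 were kept, covering 57 genes; the other 12 were detected on at most 2 arrays, 8 of them on none. With histamine 11 probes were higher, 18 were lower and 67 did not pass the test (limma, adjusted p under 0.05 over all 17871 kept probes). Thus 30.2% of the member probes were called, 11.5% higher and 18.8% lower, against 21.9% of all kept probes, 11% higher and 10.9% lower. In RNA of whole cultures, fewer cells with a transcript and less of it per cell cannot be told apart. Members are abundant transcripts, and 55 of the 96 lay in the brightest of 4 equal bins of all kept probes. In that bin 15 of 55 member probes (27.3%) were called, 3 higher and 12 lower, against 29.3% of all probes there, 14.1% higher and 15.2% lower. In the next bin 7 of 23 member probes were called (30.4%, against 26.3% of all), in the one after it 6 of 13 (46.2%, against 21.6%), and in the dimmest 1 of 5 (against 10.5%). The median log2 difference, histamine minus control, was -0.10 for members and -0.05 for all kept probes, and 64 of 96 member probes (66.7%) were below 0, against 54.8% of all. Scaling each array by its median instead of by quantiles moved the median of all kept probes to -0.21, and the members split into 7 higher and 24 lower (22.6% of calls higher, against 37.9% with quantiles) and all probes into 1114 higher and 2843 lower (28.2% higher, against 50.3% with quantiles). A fit without the intensity trend gave 10 higher and 6 lower member probes (16.7%, against 15.1% of all probes). It lost 13 of the 29 calls, all downward but that of HNRNPA2B1: the falling SRSF10 probe, SRSF5, HNRNPA0, HNRNPA2B1, HNRNPA3, the second HNRNPH1 probe, HNRNPL, both HNRNPR probes, HNRNPUL1, both SNRPF probes and SF3B2. Without histamine replicate 3 there were 10 higher and 11 lower member probes (21.9%, against 15.8% of all probes).

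**Figure D1:**
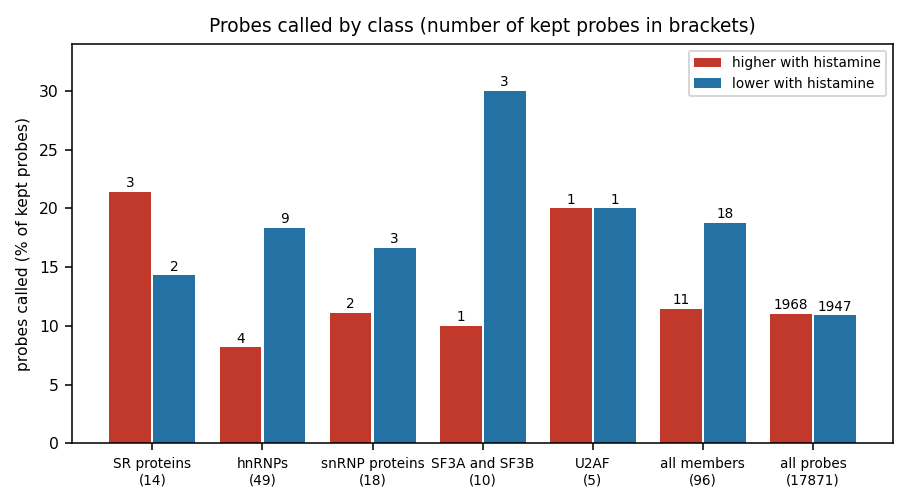
Share of kept probes called higher (red) or lower (blue) with histamine in each class, in percent, with the number of probes above each bar and the number of kept probes under each class name. The 2 rightmost groups are all members, with 11 higher and 18 lower of 96, and all kept probes, with 1968 higher and 1947 lower of 17871.

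The groups of arrays did not overlap for 44 of the 96 member probes (45.8%), with the histamine arrays below in 31 and above in 13. Over all kept probes the share was 37.3%, 20.9% below and 16.4% above. SR proteins had 14 kept probes, of which 3 were higher and 2 lower, with a median difference of -0.11. The 49 kept hnRNP probes split into 4 higher and 9 lower, with a median of -0.10. Of 18 kept probes of snRNP proteins 2 were higher and 3 lower, and their median was -0.18. Among the 10 kept SF3A and SF3B probes 1 was higher and 3 were lower (median -0.09), and among the 5 kept U2AF probes 1 was higher and 1 lower (median 0.09). Class medians thus lay between -0.18 and 0.09, while single probes ranged from -1.35 to 2.06.

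**Figure D2:**
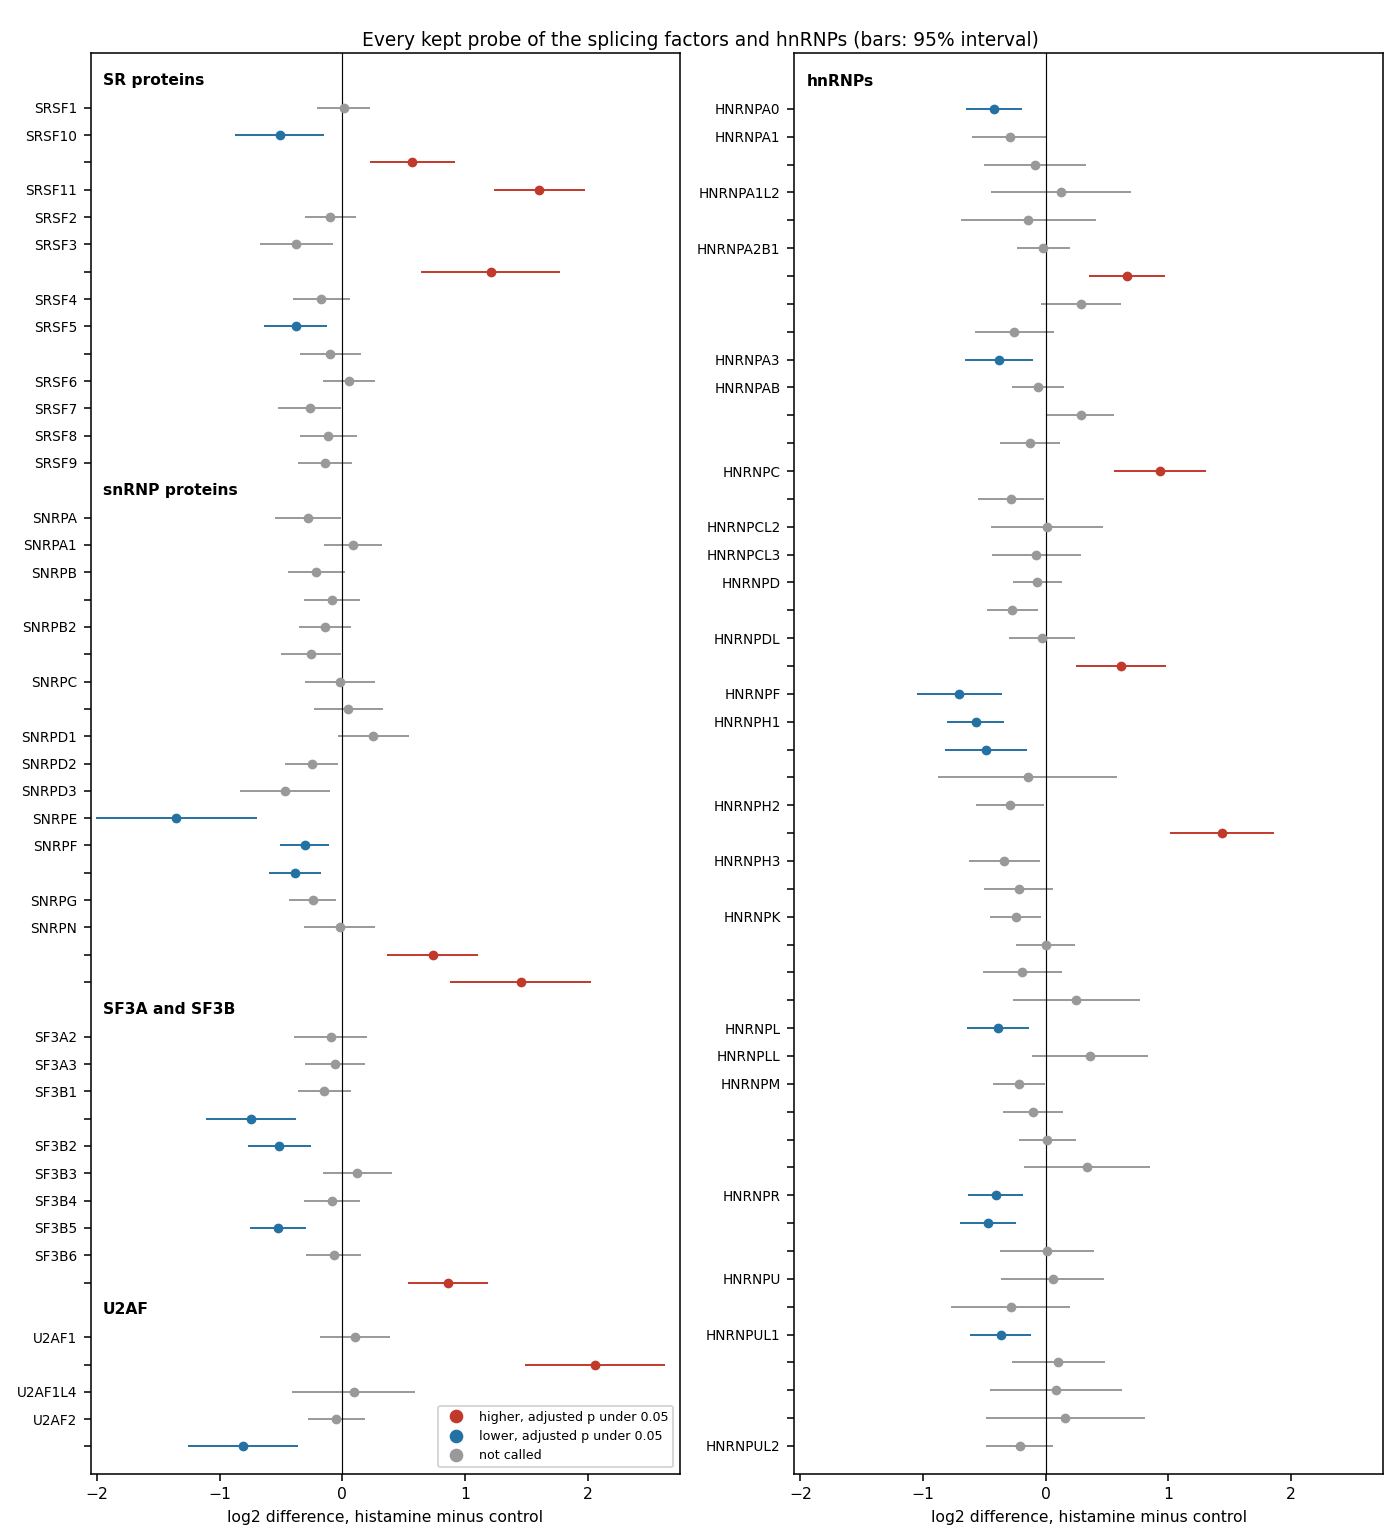
Log2 difference, histamine minus control, of each of the 96 kept probes with its 95% interval; probes of a gene follow each other from brightest to dimmest under 1 gene name. Red and blue points passed the test upward and downward, and most of the 11 red points stand below a grey or blue point of the same gene.

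Of the increases 9 of 11 came from the dimmer probes of genes that another probe also measured. Of the 57 genes measured, 27 had several kept probes and 30 had 1. The 39 dimmer probes of genes with several held those 9 increases and 5 of the 18 decreases. The 27 brightest probes of those genes held 1 increase, HNRNPC, and 6 decreases, and the 30 single probes held 1 increase, SRSF11, and 7 decreases. Over all genes the same lean was seen in smaller measure: 14.3% of dimmer probes were higher and 9.71% lower, while 10.5% of brightest probes were higher and 13.7% lower. Counted by the brightest probe of each gene alone, the members gave 2 higher and 13 lower of 57 genes. The offset added before the log compresses differences of dim probes, so their folds may be understated. Where a group lies near background the size is uncertain in either direction. The size also depends on the scale: in the processed value table the difference was 0.96 for U2AF1, 0.86 for SRSF11, 0.65 for HNRNPH2, 0.68 and 0.47 for the rising SNRPN probes, 0.38 for HNRNPDL, 0.36 for the rising SRSF10 probe, 0.33 for SRSF3, -0.45 for SNRPE, -0.42 for HNRNPF, -0.44 for SF3B1 and -0.33 for U2AF2, each smaller by over 1.5 times than the value given with each gene and each with its call kept.

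The starts of 4 genes are shown because 2 of their probes fell (HNRNPH1, HNRNPR and SNRPF) or rose with the smallest adjusted p of any member (SRSF11). Each sequence runs from 100 bases before to 20 bases after the RefSeq gene start (GRCh38.p14), with capitals for matches to 1 of 7 motifs searched on both strands.
HNRNPH1, chr5:179634765-179634884, minus strand: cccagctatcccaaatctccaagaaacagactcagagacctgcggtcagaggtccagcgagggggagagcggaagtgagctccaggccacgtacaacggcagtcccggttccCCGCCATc
HNRNPR, chr1:23344265-23344384, minus strand: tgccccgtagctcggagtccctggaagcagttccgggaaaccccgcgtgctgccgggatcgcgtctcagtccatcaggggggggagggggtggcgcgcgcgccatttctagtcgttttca
SNRPF, chr12:95858852-95858971, plus strand: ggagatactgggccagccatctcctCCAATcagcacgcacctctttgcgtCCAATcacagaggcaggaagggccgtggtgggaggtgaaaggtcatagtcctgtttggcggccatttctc
SRSF11, chr1:70221280-70221399, plus strand: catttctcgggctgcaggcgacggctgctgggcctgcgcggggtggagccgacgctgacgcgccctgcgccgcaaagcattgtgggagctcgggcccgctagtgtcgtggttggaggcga

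The capitals in SNRPF are 2 CCAAT boxes, and those in HNRNPH1 are the reverse strand of ATGGCGG, the core of YY1 sites; HNRNPR and SRSF11 held no match in this window. Over the whole 300 base promoters, 55 of the 60 member genes matched a RefSeq entry. The ETS core CCGGAAG was present in 19 of these 55 (34.5%), against 10.3% of 35116 promoters of all genes. GGGCGG, the Sp1 box, was in 35 (63.6%), against 45.0% of all, CCAAT in 22 (40%), against 34.6%, ATGGCGG in 6 (10.9%), against 5.55%, CACGTG in 8 (14.5%), against 7.26%, and TATAAA in 6 (10.9%), against 11.5%. The palindromic NRF1 motif was in 0 of the 55 and in 1.24% of all. The 35116 promoters were not limited to the 10406 genes measured here, so they are an unlike background for abundant transcripts. Whether any excess is particular to splicing factors was not tested. Of the 14 matched genes with only lower calls, 5 held the ETS core, 8 GGGCGG, 7 CCAAT, 1 ATGGCGG, 3 CACGTG and 0 TATAAA. Of the 9 with only higher calls, 1 held the ETS core, 7 GGGCGG, 4 CCAAT, 2 ATGGCGG, 2 CACGTG and 3 TATAAA. These matches describe letters in a window and are no evidence of binding.

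SRSF11, an SR-related protein whose arginine and serine-rich domain contacts U2AF, rose most among the SR genes. Its log2 intensity was 8.58, 8.30 and 8.42 on the histamine arrays, against 6.88, 6.78 and 6.82 on the control arrays. Every histamine value lay above every control value, the difference was 1.61 ± 0.18 (SE; limma adjusted p = 4.07e-06), or 3.04-fold, and the call held under each of 16 alternatives. SRSF11 has 1 probe on the array, so no second probe could be set beside it.

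SRSF10, a factor that represses splicing once it is dephosphorylated, was the gene whose probes moved in opposite directions with both past the test. The brighter probe fell: it gave 8.53, 8.04 and 8.66 with histamine, against 9.07, 8.94 and 8.75 in control (-0.51 ± 0.17; adjusted p = 0.0394). Its other kept probe rose, at 8.60, 8.37 and 8.46 with histamine, against 7.74, 7.86 and 8.11 in control (0.57 ± 0.16; adjusted p = 0.0188). The rise was lost with median scaling and without histamine replicate 1 or 3 or control replicate 1 or 2 (adjusted p from 0.00769 to 0.256 over the alternatives). The fall was lost without histamine replicate 1 or 2 or control replicate 1 or 2 (0.0146 to 0.196), and was -0.33 without histamine replicate 2.

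SRSF3, the smallest SR protein, which also takes part in mRNA export, showed the same kind of split. Its dim probe was at 6.65, 6.03 and 6.83 with histamine and at 5.25, 5.43 and 5.21 in control, where it was detected on 1 of 3 arrays (1.21 ± 0.27; adjusted p = 0.00359). It passed the filter through the histamine arrays, and its control level is at background, so the size of the difference is uncertain. The bright probe lay lower on every histamine array, at 9.73, 9.50 and 9.81, against 9.86, 10.33 and 9.98 in control, and did not pass (-0.37 ± 0.14; adjusted p = 0.0664). SRSF5 fell on its brighter probe, with 11.83, 11.56 and 11.66 on the histamine arrays and 12.30, 12.06 and 11.83 on the control arrays (-0.38 ± 0.12; adjusted p = 0.0321). Histamine replicate 1 and control replicate 3 gave nearly the same value, and the other SRSF5 probe gave -0.10 ± 0.12. That call was lost without histamine replicate 2 or 3 or control replicate 1 or 2 (adjusted p from 0.00375 to 0.154 over the alternatives). The other SR genes did not pass: SRSF1 differed by 0.01, with a 95% interval from -0.21 to 0.23, SRSF6 by 0.06 (-0.16 to 0.27), SRSF4 by -0.17 (-0.40 to 0.06) and SRSF9 by -0.14 (-0.36 to 0.08). SRSF7 gave -0.27, SRSF8 -0.11 and SRSF2 -0.10, and SRSF12 was detected on no array.

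Among the hnRNPs, HNRNPH1 and HNRNPF, which bind runs of G in pre-mRNA, fell. The brightest HNRNPH1 probe was at 11.23, 11.22 and 11.20 with histamine, against 11.99, 11.64 and 11.74 in control (-0.57 ± 0.11; adjusted p = 0.0012). Its next probe fell as well (-0.49 ± 0.16; adjusted p = 0.0344), and the dimmest one, close to background, gave -0.15 ± 0.35. The HNRNPF probe was at 7.51, 7.56 and 7.68 on the histamine arrays and at 8.29, 8.37 and 8.21 on the control arrays (-0.70 ± 0.16; adjusted p = 0.00499). Histamine and control values were separate for HNRNPF and for the brightest HNRNPH1 probe, and these calls held under all 16 alternatives. The second HNRNPH1 call was lost without histamine replicate 2 or control replicate 2 or 3 (adjusted p from 0.00565 to 0.160 over the alternatives).

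HNRNPR, a relative of SYNCRIP that binds mRNA in nucleus and cytoplasm, fell on 2 of its 3 kept probes. They gave -0.41 ± 0.11 and -0.47 ± 0.11 (adjusted p = 0.00984 and 0.00441), while the third, annotated to another RefSeq transcript and much dimmer, gave 0.01 ± 0.18. The brightest was at 11.90, 12.12 and 11.87 with histamine, against 12.48, 12.29 and 12.34 in control, and lost its call without histamine replicate 3 (adjusted p from 0.00132 to 0.0851 over the alternatives). HNRNPA0, which binds AU-rich elements, was at 10.43, 10.53 and 10.39 with histamine, against 10.82, 10.87 and 10.93 in control (-0.42 ± 0.11; adjusted p = 0.00942), a call also lost without histamine replicate 3 (0.00652 to 0.0573). The last 3 decreases in this family were smaller: HNRNPL, which binds CA repeats, fell by 0.39, HNRNPA3 fell by 0.38 and HNRNPUL1 fell by 0.37. HNRNPL, HNRNPA3 and HNRNPUL1 had limma adjusted p of 0.0262, 0.0469 and 0.0327. Each call was lost without histamine replicate 1 or 3, that of HNRNPL also without control replicate 2, that of HNRNPUL1 without control replicate 1 and that of HNRNPA3 without either (adjusted p up to 0.131, 0.158 and 0.167 over the alternatives). The other 3 HNRNPUL1 probes gave 0.10, 0.16 and 0.09.

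HNRNPC rose on the probe that was brighter over the 6 arrays. HNRNPC binds uridine tracts and keeps cryptic exons out of mRNA. The log2 intensity was 11.03, 11.15 and 10.92 with histamine, against 9.86, 9.75 and 10.68 in control (0.93 ± 0.18; adjusted p = 0.00108). Control replicate 3 stood closer to the histamine arrays than to the other control arrays, and the groups did not overlap. The other probe, annotated to a different transcript, lay lower on every histamine array without passing the test (-0.28 ± 0.13; adjusted p = 0.13).

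HNRNPH2, a close relative of HNRNPH1 on the X chromosome, rose on its dimmer probe, which was at 8.06, 7.91 and 7.69 with histamine and at 6.26, 6.55 and 6.53 in control (1.44 ± 0.20; adjusted p = 5.47e-05). Histamine values exceeded control values by more than a unit on this probe, while the brighter one, annotated to another transcript, gave -0.29 ± 0.13 and did not pass. HNRNPA2B1, which directs exon skipping and mRNA transport, had 4 kept probes. The second brightest rose, at 11.10, 10.91 and 11.18 with histamine, against 10.23, 10.17 and 10.81 in control (0.66 ± 0.15; adjusted p = 0.00382), and the others gave -0.02, 0.29 and -0.26. HNRNPDL, a relative of HNRNPD, rose on its dimmer probe (0.61 ± 0.17; adjusted p = 0.0177) and gave -0.03 on its brighter one; the rise was lost without histamine replicate 1 or control replicate 1 or 2 (adjusted p from 0.00642 to 0.206 over the alternatives). With median scaling the calls of HNRNPA2B1 and HNRNPDL were lost.

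Several well-known hnRNPs did not pass on any kept probe. HNRNPK, which binds C-rich RNA, lay between -0.25 and 0.25 on its 4 probes, and HNRNPM gave -0.22, -0.10, 0.01 and 0.34. HNRNPD, an AU-rich element binder, gave -0.27 and -0.07, HNRNPAB gave -0.06, -0.13 and 0.28, HNRNPU gave 0.06 and -0.28, and HNRNPH3 gave -0.34 and -0.22. HNRNPLL gave 0.36 ± 0.23 and HNRNPUL2 -0.21 ± 0.13, and the dim probes of HNRNPA1L2, HNRNPCL2 and HNRNPCL3 lay between -0.14 and 0.12. HNRNPCL1 was detected on 1 histamine and 1 control array and was not tested. The probes of HNRNPA1, the archetype of splicing repression, gave -0.29 and -0.09, with histamine replicates spread from 7.70 to 8.54 on the dimmer one. HNRNPA1 has many processed copies in the genome and HNRNPC has the HNRNPCL genes, and probes of such copies and their parents may read each other's transcripts. Among the 6 pseudogene probes left out, that of HNRNPA1P10 was higher with histamine (1.09; adjusted p = 1.59e-05), and so was that of HNRNPA1P33 (0.40; adjusted p = 0.028).

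In the snRNP class 2 genes of the Sm ring fell, SNRPF and SNRPE, and no other gene of that ring passed the test apart from SNRPN, which rose. SNRPF fell on both probes: the brighter was at 13.10, 12.91 and 13.05 with histamine, against 13.36, 13.30 and 13.31 in control (-0.31 ± 0.10; adjusted p = 0.0278), and the other gave -0.39 ± 0.10 (adjusted p = 0.0103). SNRPF was the 1 gene with several kept probes in which every kept probe fell. Its smaller call was lost without histamine replicate 2 or 3 or control replicate 1 or 2 (adjusted p from 0.0195 to 0.142 over the alternatives), and the larger one without histamine replicate 2 (0.00151 to 0.0935). SNRPE fell by 1.35 on the log2 scale on a dim probe at 5.71, 5.06 and 6.46 with histamine, against 7.23, 7.44 and 6.62 in control (SE 0.31; adjusted p = 0.00474). Replicate 3 of either group lay close to the other group on it, and it was detected on 2 of 3 histamine arrays, so the size is uncertain here too. SNRPG (-0.24 ± 0.09; adjusted p = 0.0671), SNRPD3 (-0.47 ± 0.17; 0.0648) and SNRPD2 (-0.25 ± 0.10; 0.0893) lay lower on every histamine array and did not pass. SNRPD1 was above the control arrays on every histamine array, again without passing (0.25 ± 0.14; adjusted p = 0.21). SNRPB gave -0.21 and -0.08 on its probes.

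Proteins specific to the U1 and U2 particles gave no call. SNRPA and SNRPC, both of U1, gave -0.28 on the SNRPA probe and 0.05 and -0.02 on the SNRPC probes. SNRPA1 and SNRPB2, both of U2, gave 0.09 on the SNRPA1 probe and -0.14 and -0.26 on the SNRPB2 probes. SNRPN, an imprinted gene whose Sm protein stands in for SNRPB in brain, was the 1 member of the class to rise. A dim SNRPN probe was at 8.37, 8.16 and 7.41 with histamine, against 6.00, 6.53 and 7.06 in control (1.45 ± 0.27; adjusted p = 0.000902). A second, annotated to another transcript, was at 8.66, 8.72 and 8.45 with histamine, against 8.04, 7.53 and 8.05 in control (0.74 ± 0.18; adjusted p = 0.00613), a call lost with median scaling. The brightest SNRPN probe did not pass, at 8.94, 8.98 and 8.89 with histamine, against 8.99, 8.83 and 9.05 in control (-0.02 ± 0.14). SNRPN transcripts also encode SNURF, and these probes cannot tell the reading frames apart.

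SF3B is the complex that clamps the branch point. Of the 6 measured genes with an SF3B symbol 3 fell on a probe and 1 rose. Subunits under other symbols, such as PHF5A, were not counted here. PHF5A gave 0.08 on its brightest probe, which did not pass, and 0.67 on its other probe (limma adjusted p = 0.0223). SF3B5, a small subunit, was at 11.36, 11.24 and 11.31 with histamine, against 11.89, 11.95 and 11.66 in control (-0.53 ± 0.11; adjusted p = 0.00193), and the call held under all 16 alternatives. SF3B2, a large subunit, was at 10.72, 10.99 and 10.80 with histamine, against 11.45, 11.47 and 11.14 in control (-0.51 ± 0.12; adjusted p = 0.00522, up to 0.0593 over the alternatives). Neither group overlapped the other for these subunits. SF3B1, the largest subunit, fell on its dimmer probe, at 7.54, 7.46 and 7.56 with histamine, against 8.47, 8.28 and 8.04 in control (-0.74 ± 0.17; adjusted p = 0.00495), and gave -0.15 ± 0.10 on the much brighter one. SF3B6, which contacts the branch point adenosine, rose on its dimmer probe, at 11.16, 10.95 and 10.88 with histamine, against 9.78, 10.08 and 10.53 in control (0.86 ± 0.15; adjusted p = 0.000621), while its brighter probe gave -0.07 ± 0.11. SF3B3 (0.12), SF3B4 (-0.08), SF3A2 (-0.09) and SF3A3 (-0.06) did not pass, and SF3A1 was detected on no array.

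U2AF1, the small U2AF subunit that reads the AG of the 3′ splice site, gave the largest difference of any member. Its dimmer probe was at 8.67, 8.08 and 8.08 on the histamine arrays, against 5.66, 6.08 and 6.91 on the control arrays (2.06 ± 0.27; adjusted p = 2.9e-05), a 4.17-fold rise. The control arrays spread over more than a unit and all lay below the histamine arrays. Control replicate 1 was close to the dimmest detected probe of its array, at 5.38, so the size of this rise is uncertain. In the processed value table the difference was 0.96. The brighter U2AF1 probe, annotated to the same transcript, gave 9.67, 9.47 and 9.47 with histamine, against 9.52, 9.56 and 9.23 in control (0.10 ± 0.14; adjusted p = 0.643). U2AF2, the large subunit that binds the pyrimidine tract, fell on its dimmer probe (-0.81 ± 0.21; adjusted p = 0.0107), which was at 6.73, 6.36 and 6.41 with histamine, against 7.50, 7.16 and 7.26 in control. The call was lost without control replicate 1 (adjusted p from 0.00305 to 0.0592 over the alternatives), and the bright U2AF2 probe gave -0.05 ± 0.11. U2AF1L4 gave 0.09 ± 0.24.

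To test whether probes of a gene moved by different amounts, the within-array difference between the brightest kept probe and each other kept probe was compared between groups over all 3337 such pairs on the array. Of the 39 member pairs 12 differed (30.8%), in 11 genes, against 20.3% of all pairs. Brightest minus other, the log2 difference was -1.96 ± 0.30 for U2AF1 (limma adjusted p = 4.22e-05), -1.73 ± 0.25 for HNRNPH2 (2.53e-05), -1.58 ± 0.30 for SRSF3 (0.000471) and -1.08 ± 0.22 for SRSF10 (0.000789). The SRSF3 pair is among the 12, but its dim probe passed the filter through the histamine arrays. The size of that pair difference is therefore uncertain, and its call adds no separate support. SNRPN gave -1.47 ± 0.28 and -0.76 ± 0.20 for its pairs, SF3B6 gave -0.93 ± 0.16, HNRNPA2B1 -0.68 ± 0.16 and HNRNPDL -0.65 ± 0.21. In HNRNPC (1.22 ± 0.22), U2AF2 (0.76 ± 0.25) and SF3B1 (0.60 ± 0.21) the brightest probe stood higher relative to the other with histamine. The dimmer probe thus moved up relative to the brightest in 9 of 12 called member pairs (75.0%), against 64.1% of the 677 called pairs of all genes. These 9 pairs hold the same dimmer probes that were counted above as increases, that of SRSF3 included, so they are no separate result. In 11 of the 12 called member pairs exactly 1 of the probes had passed the test by itself, as in 492 of the 677.

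**Figure D3:**
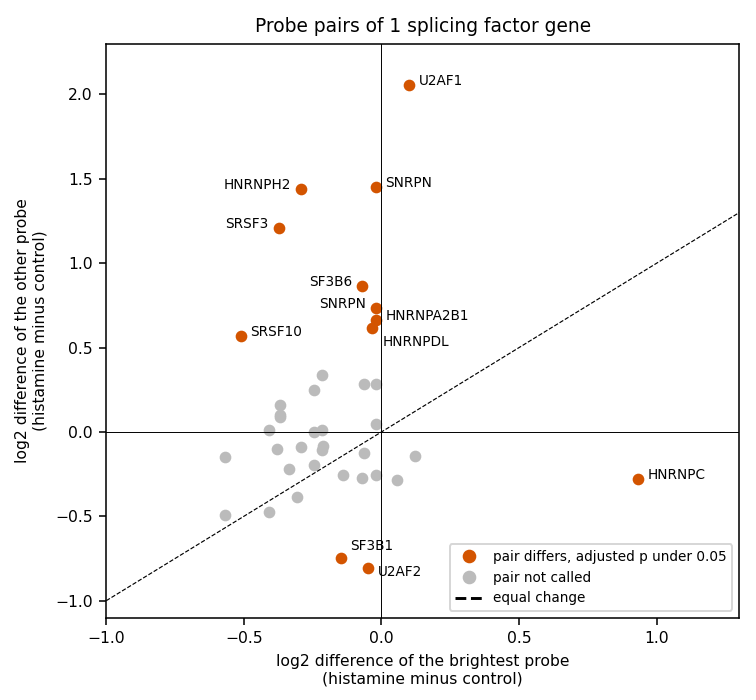
Log2 difference, histamine minus control, of the brightest kept probe (horizontal) and of another kept probe of the same gene (vertical) for the 39 member pairs; the dashed line marks equal change. The 12 orange pairs differed in the test, and 9 of them lie above the line, from HNRNPDL to U2AF1.

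Only SRSF10 among the member pairs had calls in opposite directions, as did 71 of the 3337 pairs of all genes. In 8 of the 12 called member pairs the annotation gives both probes the same RefSeq transcript, as in 26 of all 39 member pairs. Over all genes both probes shared a transcript in 481 of 677 called pairs and in 2138 of all 3337 pairs. For U2AF1, SF3B6, SRSF3 and SRSF10, which are among the 8, no transcript form is therefore named by the annotation. The pairs of HNRNPH2, HNRNPC and HNRNPDL, and 1 pair of SNRPN, are annotated to different transcripts. Probe positions on the transcripts were not used here, so which exon each probe reads is not given. The calls of the HNRNPDL, U2AF2 and SF3B1 pairs were each lost when any array but control replicate 3 was left out (adjusted p up to 0.151, 0.135 and 0.175 over the alternatives). Those of U2AF2 and SF3B1 were also lost in the processed value table, where the U2AF1 pair gave -0.87 and the SRSF3 pair -0.66 with their calls kept. Between 9 and 13 member pairs were called when single arrays were left out, 9 without histamine replicate 1. The falling pairs of HNRNPH1, HNRNPR and SNRPF differed by -0.08, 0.07 and 0.08 and were not called.

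**Figure D4:**
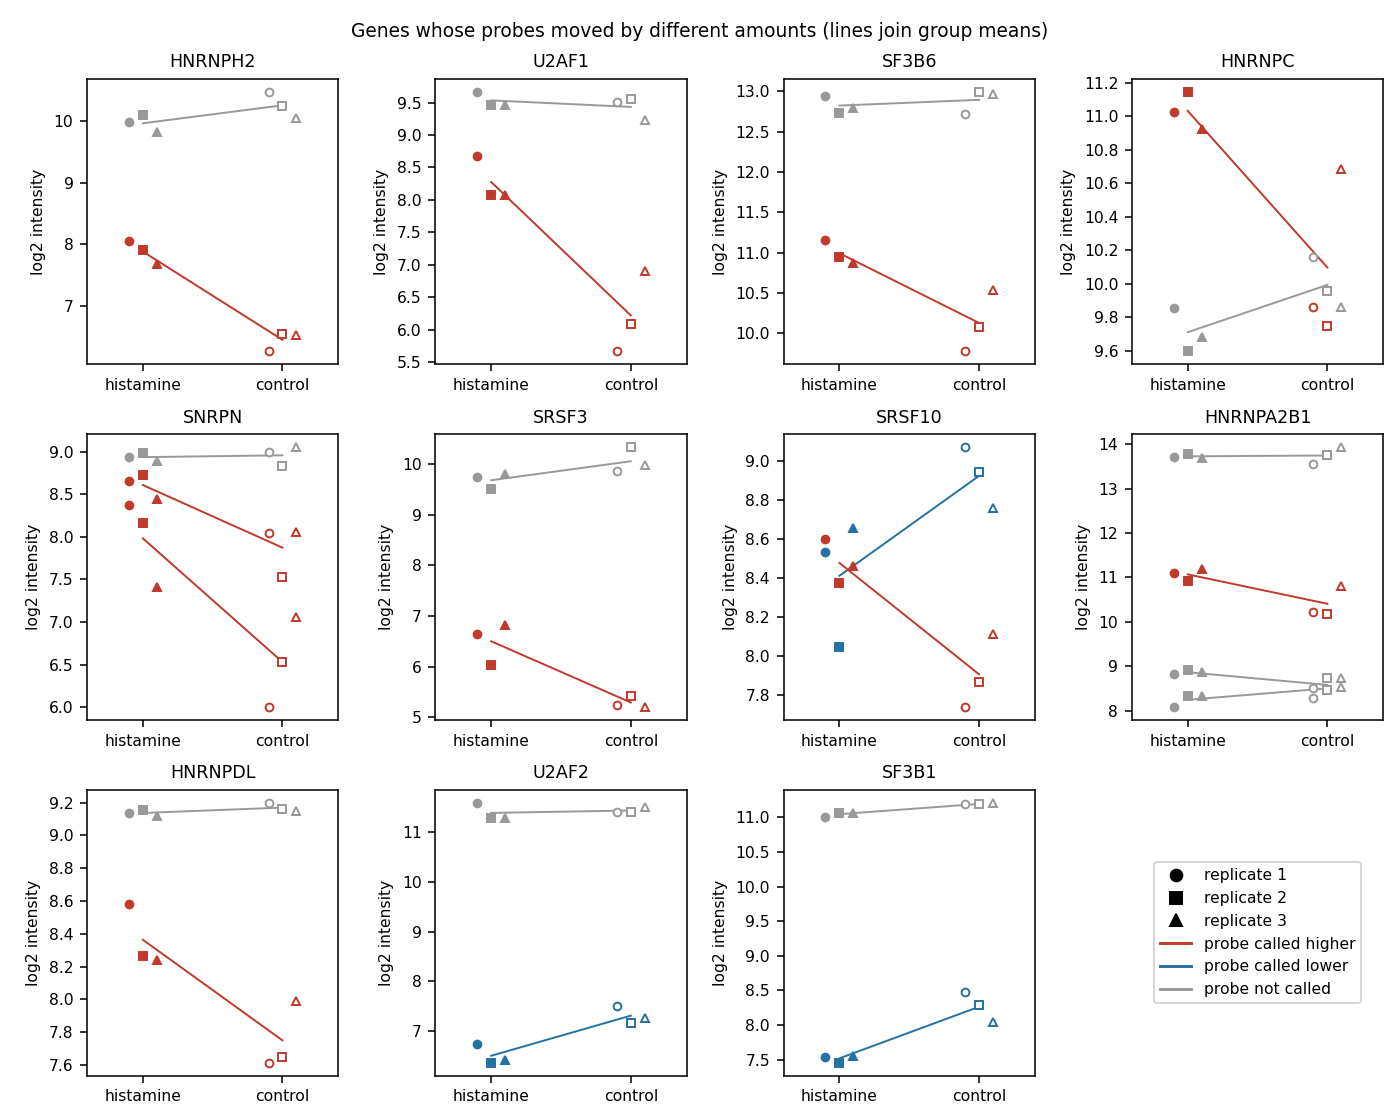
Log2 intensity of every kept probe on each array for the 11 genes with a called pair, histamine (filled) left of control (open), with a symbol per replicate and a line joining group means. The open triangle is control replicate 3. It lies above the other control arrays on the rising probe of U2AF1, SF3B6, HNRNPC, HNRNPA2B1, HNRNPDL, SRSF10 and SNRPN. For SNRPN this is the dimmer of the rising probes.

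Control replicate 3 lay toward the histamine arrays on many of these probes. Placing the mean of control replicates 1 and 2 at 0 and the histamine mean at 1, control replicate 3 was at a median of 0.46 over the 11 member probes that rose, between -0.12 for SRSF3 and 0.72 for HNRNPC. For all 1968 probes called higher the median was 0.32. Over the 18 member probes that fell it was 0.22, against 0.16 for all 1947 probes called lower. SRSF11 and the HNRNPH2 probe rose with control replicate 3 at or below 0.09 on that scale. Without control replicate 3 the members had 11 higher and 21 lower probes (33.3%, against 25.3% of all probes). Without histamine replicate 1, with its muscle transcripts, they had 9 higher and 14 lower (24.0%, against 16.3% of all probes). What sets these arrays apart was not tested.

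Other splicing genes were taken from 10 lists and each represented by its brightest kept probe. Of 177 measured genes 10 were higher, 29 lower and 138 did not pass (22.0% called), against 20.4% of all 10406 genes by the same rule, 939 higher and 1187 lower, and their median was -0.13, against -0.08 for all genes. These counts leave out dimmer probes, some of which passed in genes counted as not passing. Such probes moved in either direction, as in LSM5 (1.32), DBR1 (1.07), SCAF11 (-0.83) and SON (-0.72). The kinases and phosphatases of SR proteins gave 0 higher and 2 lower of 9 measured. SRPK2, which phosphorylates SR proteins in the cytoplasm, was at 8.71, 8.62 and 8.52 with histamine, against 9.79, 9.79 and 9.78 in control (-1.17 ± 0.13; limma adjusted p = 4.62e-06), and gave 0.54 on its other probe, which did not pass. PPP1CA, a catalytic subunit of protein phosphatase 1, fell by 0.42, while its other probe gave -0.12 and did not pass.

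**Figure D5:**
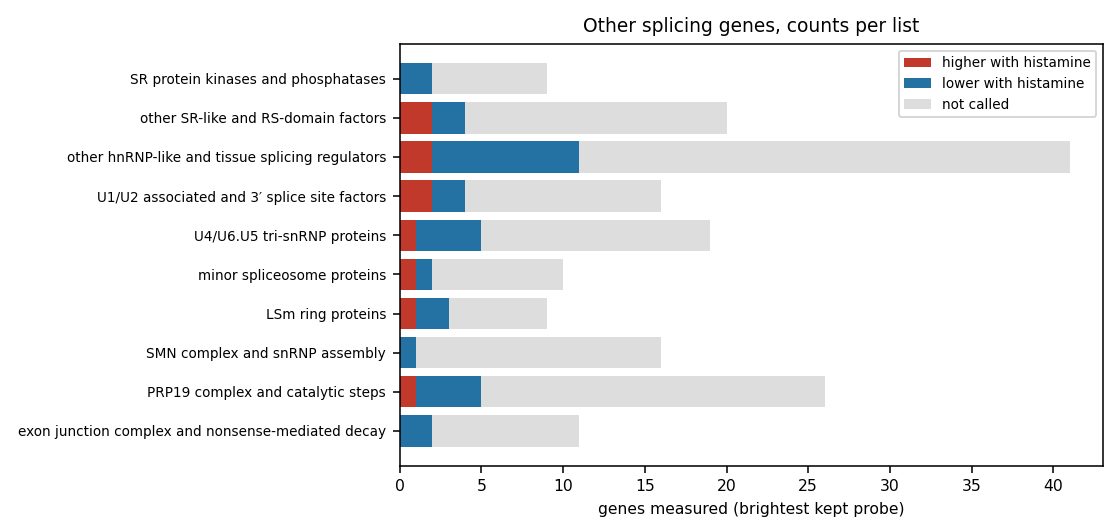
Number of measured genes in each of 10 lists of other splicing genes that were higher (red), lower (blue) or not called (grey) with histamine, each gene by its brightest kept probe. The list of other hnRNP-like and tissue regulators has the most calls, 2 higher and 9 lower of 41.

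Among SR-like factors 2 of 20 rose and 2 fell. SREK1 (0.91 ± 0.16) and TRA2B, an exonic enhancer binder (0.58 ± 0.11), rose, while SCAF8 (-0.65 ± 0.18) and BCLAF1 (-0.49 ± 0.13) fell. Other BCLAF1 probes gave -0.78 and 1.64, both past the test, and the other SREK1 probes gave 1.44, past the test, and -0.47. The hnRNP-like and tissue regulators had 2 higher and 9 lower of 41. TAF15, an RNA-binding protein, was at 11.11, 11.23 and 10.24 with histamine, against 12.17, 12.37 and 12.43 in control (-1.46 ± 0.18; adjusted p = 1.59e-05), with -1.31 on its other probe. MBNL2, a muscleblind regulator, rose by 0.97 and PTBP2, the neuronal form of the polypyrimidine tract protein, by 0.80. The other MBNL2 probes gave -0.46 and 1.55, and the other PTBP2 probe gave 0.62 without passing. ESRP1, the epithelial splicing regulator (named after its values were seen), was at 7.05, 7.55 and 7.10 with histamine, against 7.77, 8.22 and 7.97 in control (-0.75 ± 0.20; adjusted p = 0.0109). Of the U1 and U2 associated and 3′ splice site factors 2 of 16 rose and 2 fell, namely LUC7L3, a U1-associated protein (1.33 ± 0.19), SMNDC1 (0.86 ± 0.18), RBM39 (-0.64 ± 0.16) and DDX39A. The other LUC7L3 probes gave 0.73 and 0.38 and did not pass.

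The U4/U6.U5 tri-snRNP list had 1 higher and 4 lower of 19: PRPF18 (0.90 ± 0.20) rose, and PRPF8, the core scaffold of the spliceosome (-0.42 ± 0.12), PPIH and SNRNP40 (-0.37 on each), and PRPF4 fell. Among the LSm proteins, some of which hold the U6 RNA in a ring, 1 of 9 rose and 2 fell. LSM6 was at 7.65, 7.42 and 7.42 with histamine, against 5.68, 6.13 and 6.88 in control (1.27 ± 0.26; adjusted p = 0.00208), with control replicate 3 again nearest to the histamine arrays. LSM8 fell by 0.75 and LSM3 fell by 0.34. The PRP19 and catalytic list had 1 higher, CDC5L (0.59 ± 0.17), and 4 lower of 26, of which PPIL1 (-0.54 ± 0.14) and ISY1 (-0.51 ± 0.12) moved furthest. The other ISY1 probe gave -0.23 and did not pass. Minor spliceosome proteins had SNRNP35 higher (0.76) and SNRNP25 lower (-0.49) of 10. The exon junction and decay list had 0 higher and 2 lower of 11, SMG5 (-0.46) and CASC3 (-0.45), and SMN complex and assembly genes had 0 higher and 1 lower of 16, SNUPN (-0.46). The other SNUPN probe gave -0.34 and did not pass. Dimmer probes of UPF2 (-0.90), GEMIN2 (0.46) and PHAX (0.53 and -0.81) passed in these lists and are not in the counts. Over these lists 9 genes were higher and 9 lower without control replicate 2, 8 higher and 15 lower without histamine replicate 1 or 3, 6 higher and 45 lower with median scaling.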

How the data were processed

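Each probe's mean bead intensity was deposited as a raw signal, not normalized, per the file headers. The deposited detection p-values rank each signal among negative control beads. The authors' processed log2 table is quantile normalized; its transform is unstated. The submitters' processing notes name GenomeStudio 2010.1 and lumi. Here signals were corrected with normexp (limma 3.58.1, R 4.3.3, statmod 1.5.0; control distribution inferred from the detection p-values, offset 16), quantile normalized and logged (log2). Each of 17871 kept probes was tested with lmFit and eBayes with an intensity trend, 2-sided, adjusted by Benjamini and Hochberg; probe pairs were fitted likewise, with the dimmer probe's intensity as trend. Scripts were tested on simulated data. Of all probes 30112 carry 1 gene symbol, 8 several and 17202 none. The number of arrays limits precision.

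Members, lists and rules were chosen with earlier results of these data known. Named in full were called member probes, the 2 largest differences of each class, called pairs, all probes of genes with a call, and in each other list up to 3 called genes with the largest difference; other genes named were chosen after their values were seen. Alternatives changed background correction, offset, scaling, value table, filter, probes per gene, variance model and block, and left out each array.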

Additional observations from a re-analysis of the deposited data

How the results depend on the processing

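Of 190 values that 16 alternatives gave for the 12 main counts and medians, 158 lay within 1.5 times the count reported, or, for a median, within the pooled replicate SD of it. Of the 29 member calls 12 held under each alternative that tested the probe: SRSF11, the dim SRSF3 probe, HNRNPC, HNRNPF, the brightest HNRNPH1 probe, HNRNPH2, SNRPE, a SNRPN probe, SF3B1, SF3B5, SF3B6 and U2AF1. Of these the SRSF3, SNRPE and U2AF1 probes were dropped by the stricter filter on dim probes, so that alternative could not test them. None of the 29 calls reversed under an alternative. The same holds for the 12 member pairs, of which 8 kept their call under every alternative that tested the pair. The brightest probe per gene gave 2220 calls among all genes and 15 among members (2 higher), with medians of -0.22 for hnRNPs and -0.23 for snRNP proteins. Without the intensity trend 16 member probes were called, 6 of them lower, and 16 other splicing genes; with no filter on dim probes 25 other splicing genes were called and the snRNP median was -0.0839. Median scaling gave 7 higher member probes and medians of -0.30 for SR, -0.27 for hnRNP, -0.32 for snRNP, -0.30 for SF3 and -0.11 for U2AF probes. The hnRNP median was -0.0638 without background correction, -0.0762 with an offset of 50 and -0.0680 in the processed value table. The causes were not tested. Leaving out single arrays gave 2490 (without control replicate 2) to 4514 calls over all probes, 21 to 32 member calls, 9 to 11 higher and 11 to 21 lower, 18 to 55 other splicing genes, 487 to 821 pairs and 9 to 13 member pairs. Medians then ranged from -0.16 to -0.0647 for SR, -0.15 to -0.0854 for hnRNP, -0.22 to -0.12 for snRNP, -0.16 to -0.0716 for SF3 and -0.02 to 0.14 for U2AF probes, which turned below 0 without histamine replicate 1 or control replicate 3. Same-numbered samples of the groups did not visibly deviate together (correlations of -0.02, -0.03 and -0.02). So few samples cannot exclude a pairing by number. With the replicate block 27 member probes were called, 11 higher and 16 lower, and 3531 of all probes. HNRNPA3 and HNRNPUL1 lost their calls under that block. With no filter on dim probes 6 member calls were lost, those of the falling SRSF10 probe, SRSF5, HNRNPA3, the second HNRNPH1 probe, HNRNPL and HNRNPUL1. Dim probes near background limit what can be said of SNRPE, SRSF3, the dimmer U2AF1 probe and the third HNRNPH1 probe.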
